A study of Mus musculus with 9 samples.

Results

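The 7 genes C1qa, C1qb, C1qc, Vcam1, Adgre1, Maf and Mpeg1, used as marks of tissue macrophages, were followed in gel-cultured mouse neutrophils. They were taken by symbol from the 22173 genes of the deposited count tables, and 7 of 7 were found and passed the filter on low counts. The cells were wild-type primary neutrophils from mouse bone marrow, kept for 2 days inside gelatin methacryloyl, a crosslinked gelatin whose stiffness can be tuned. Gels had a stiffness of 1.5 kPa (low, the study's control), 2.6 kPa (middle) or 5.7 kPa (high), and each stiffness gave 3 libraries of poly(A) RNA, 9 in all. All groups shared genotype, medium with fetal bovine serum and culture time. The sources used here do not give the sex or age of the mice, the purity of the neutrophils, or whether replicates were separate mice or cultures. The p-values therefore measure only how these libraries vary, and that variation may be technical.

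C1q is the recognition molecule of the classical complement pathway. It is assembled from the A, B and C chains, binds immune complexes and dying cells, and is made mainly by macrophages rather than by the liver. Maf encodes a leucine zipper transcription factor active in resident macrophages. Vcam1, an adhesion molecule bound by alpha 4 integrins, also marks macrophages of the spleen and of bone marrow islands where red cells mature. Adgre1 encodes F4/80, an adhesion G protein-coupled receptor long used to stain mouse macrophages, and Mpeg1 encodes perforin-2, a pore-forming protein of phagocytes that acts on engulfed bacteria.

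C1qa, C1qb and C1qc lie next to each other on mouse chromosome 4 in the RefSeq gene table of GRCm38.p6, with C1qc between the other two. The count files were made on another build, GRCm39, so only promoter coordinates of the RefSeq table are given. Sequence before the annotated start was present in that table for 3 of the 7 genes, C1qb, C1qc and Mpeg1, and all 3 are shown. A link between these sequences and the expression of the genes was not tested. The 250 bases upstream of the start are written 5′ to 3′ in the direction of the gene, at chr4:136886201-136886450 (minus strand) for C1qb, chr4:136892915-136893164 (minus strand) for C1qc and chr19:12460520-12460769 (plus strand) for Mpeg1. Capitals mark matches, on either strand, to a Maf half-site (TGCTGA) or to the core bound by PU.1, a myeloid transcription factor (AGGAAG, which reads CTTCCT on the other strand).
C1qb: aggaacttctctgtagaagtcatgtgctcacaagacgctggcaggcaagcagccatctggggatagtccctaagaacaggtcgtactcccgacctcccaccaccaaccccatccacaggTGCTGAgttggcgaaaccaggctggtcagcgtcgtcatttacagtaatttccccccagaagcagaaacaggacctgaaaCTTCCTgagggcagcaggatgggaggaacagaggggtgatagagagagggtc
C1qc: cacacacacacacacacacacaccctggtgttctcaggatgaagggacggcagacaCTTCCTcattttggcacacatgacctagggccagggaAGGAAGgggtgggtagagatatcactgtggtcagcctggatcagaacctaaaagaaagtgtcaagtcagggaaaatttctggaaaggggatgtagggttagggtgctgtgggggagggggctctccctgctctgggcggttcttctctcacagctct
Mpeg1: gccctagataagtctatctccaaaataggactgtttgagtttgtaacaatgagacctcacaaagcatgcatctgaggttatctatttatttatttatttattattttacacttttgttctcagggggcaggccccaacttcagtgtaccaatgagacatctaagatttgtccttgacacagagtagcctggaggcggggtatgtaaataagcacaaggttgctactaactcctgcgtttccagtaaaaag
The C1qb window held 1 Maf half-site, 126 to 131 bases before the start, and 1 PU.1 core, 47 to 52 bases before it. The C1qc window held 2 PU.1 cores and no Maf half-site, and the Mpeg1 window held neither. The Maf half-site occurred in 16.1% and the PU.1 core in 29.5% of the 32851 RefSeq windows of this length. A further motif, a pair of interferon regulatory factor contacts searched on both strands and present in 2.98% of windows, had no match in the 3 shown. No entry was used for C1qa, Vcam1, Adgre1 or Maf.

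Total counts were 13.2 M to 19.5 M per library. Libraries with replicate number 1 stood apart from those numbered 2 and 3 in every gel: 7909 of 12094 tested genes differed between them, and none by edgeR between replicates 3 and 2 (150 at an unadjusted p under 0.05). Neutrophil genes were abundant, but their summed level was 3200 to 3730 CPM in replicate 1 libraries and 13700 to 23400 CPM in the others (13 markers, all detected). CPM are TMM-scaled counts relative to library size. The 12 macrophage markers outside the 7 genes summed to 2009 to 2285 CPM in replicate 1 libraries and to 3310 to 3491 CPM in the others. Of these, Clec4f, a Kupffer cell gene, had 0 counts throughout and Timd4 at most 2 counts. The 7 classical monocyte markers summed to 1300 to 1480 CPM in replicate 1 and to 2910 to 3410 CPM in replicates 2 and 3. These 2 sums are not independent, because Csf1r is in both lists. It averaged 702 CPM in replicate 1 and 1330 CPM in replicates 2 and 3. In these bulk samples a smaller number of cells of a type and less RNA per cell cannot be told apart. Each comparison of gels was therefore fitted once on gel alone and once with a block, a term for replicate number that compares gels within a number. "Rose" and "fell" mean a Benjamini-Hochberg adjusted p under 0.05 in edgeR's quasi-likelihood test, with the block unless another fit is named, and values after ± are standard errors unless marked SD.

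Per length, the 7 genes spanned nearly 3 orders of magnitude. In the authors' FPKM (counts scaled by exonic length and library size), Mpeg1 averaged 1317 ± 141 (SD, n = 9) and ranked between place 17 and place 29 of all genes in every library. Adgre1 averaged 185 ± 28.2 FPKM, C1qb 176 ± 115, C1qc 122 ± 84.0, C1qa 76.6 ± 58.8 and Maf 42.6 ± 23.2 (SD, n = 9). Vcam1 was the lowest, with 2.93 ± 1.32 FPKM (SD, n = 9). Adgre1, C1qa, C1qb and C1qc had overlapping ranges. The Maf range overlapped those of the C1q genes but lay below that of Adgre1. Every library placed Mpeg1 above and Vcam1 below the other 6.

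**Figure D1:**
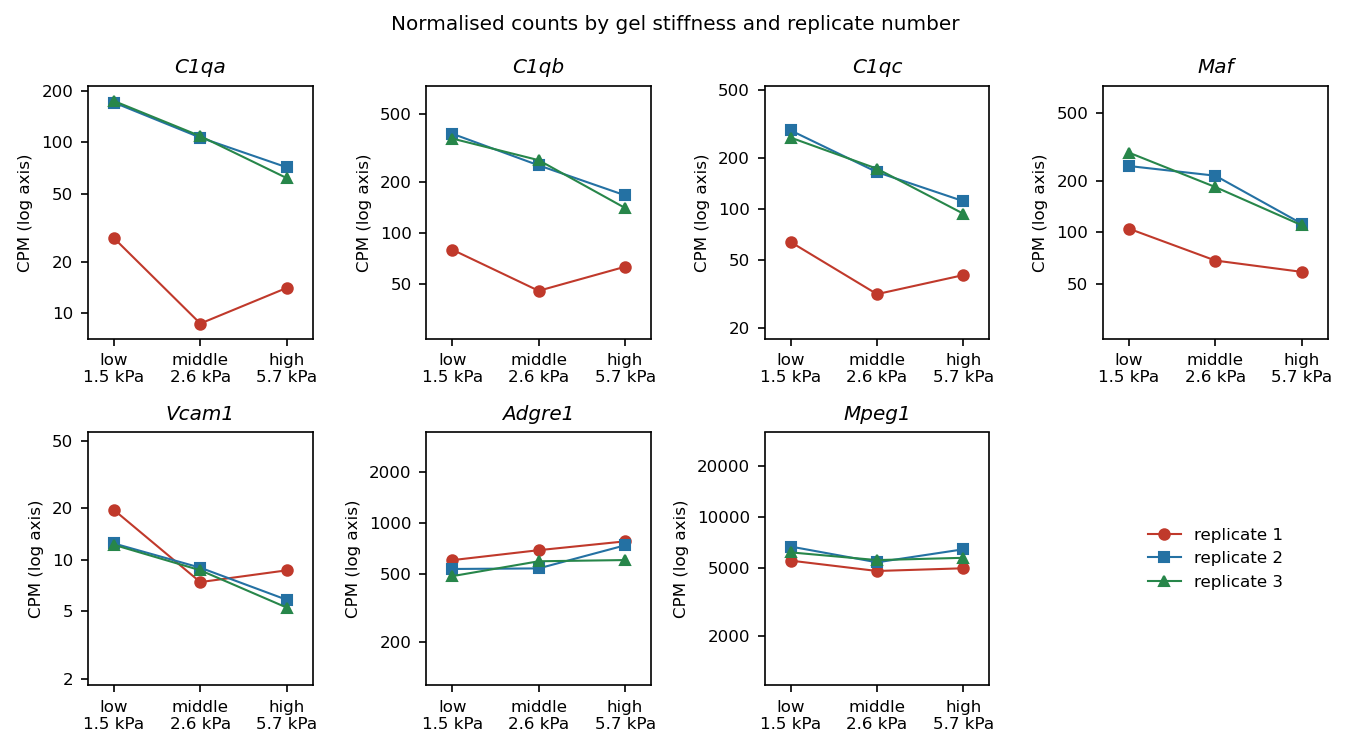
TMM-scaled CPM (log axis, the same span in every panel) of the 7 genes in each of the 9 libraries, by gel stiffness, with lines joining libraries of the same replicate number. C1qa, C1qb, C1qc and Maf were lowest in replicate 1 and declined with stiffness in replicates 2 and 3, Vcam1 declined in those too, and Adgre1 and Mpeg1 stayed in a narrow band.

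C1q transcripts were lower in stiffer gels, and lower still in replicate 1 than in the other replicates. C1qa, which encodes the A chain, had 27.4, 171 and 175 CPM in replicates 1, 2 and 3 of the low gels, 8.66, 107 and 109 CPM in the middle gels, and 14.0, 71.4 and 61.7 CPM in the high gels. C1qb, for the B chain, had 79.7, 381 and 357 CPM in low, 45.7, 249 and 267 CPM in middle and 63.3, 166 and 140 CPM in high gels. C1qc, for the C chain, had 64.0, 289 and 262 CPM in low, 31.7, 164 and 172 CPM in middle and 40.9, 111 and 93.7 CPM in high gels. High and low libraries overlapped for each chain because low replicate 1 lay below high replicates 2 and 3. Within replicates 2 and 3 each chain declined from low to middle to high gels without overlap. How many of all genes share this order there was not counted. From the lowest library, middle replicate 1, to the highest, the counts spanned 20.2-fold for C1qa, 8.34-fold for C1qb and 9.12-fold for C1qc.

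In high against low gels C1qa fell by 1.27 ± 0.25 on the log2 scale (adjusted p = 0.0222, edgeR with the block), to 41.6% of the low level. C1qc fell by 1.16 ± 0.22 (adjusted p = 0.0146). C1qb was at -0.94 ± 0.26 and missed the threshold (adjusted p = 0.0628). The within-replicate log2 differences of C1qb were -0.33, -1.20 and -1.35 for replicates 1, 2 and 3, those of C1qa -0.96, -1.26 and -1.50, and those of C1qc -0.64, -1.38 and -1.48. All 3 chains were thus lower in high than in low gels within each replicate number, as were 24.8% of all tested genes. Without the block no chain passed (C1qa -1.34 ± 1.01, adjusted p = 0.903). In replicates 2 and 3 alone C1qa (-1.38 ± 0.08), C1qb (-1.27 ± 0.09) and C1qc (-1.43 ± 0.09) all fell. The C1qa call was lost when low replicate 2, low replicate 3, high replicate 2 or high replicate 3 was left out (adjusted p 0.0789 to 0.139), and the C1qc call without low replicate 2, low replicate 3 or high replicate 2 (0.0617 to 0.0966). C1qb passed without low replicate 1 (0.0497), middle replicate 1 (0.0217) or high replicate 1 (3.4e-05).

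Replicate 1 went against replicates 2 and 3 in the upper stiffness step. In high against middle gels C1qa differed by 0.69 in replicate 1 and by -0.58 and -0.82 in replicates 2 and 3 on the log2 scale. The values were 0.47, -0.58 and -0.93 for C1qb and 0.37, -0.57 and -0.88 for C1qc. The difference between replicate numbers in this step was not tested. Between middle and low gels each chain was lower in all 3 replicate numbers, as were 19.6% of tested genes, with log2 differences for C1qa of -1.65, -0.68 and -0.68, for C1qb of -0.80, -0.62 and -0.42, and for C1qc of -1.01, -0.81 and -0.61.

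The chains also differed in their proportions. C1qb was the most abundant chain per length and C1qa the least in every library. C1qa made up 10.3% to 16.4% of the summed C1q FPKM in replicate 1 libraries, against 20.3% to 22.5% in replicates 2 and 3. The C1qb to C1qa ratio was 2.85, 5.18 and 4.43 in low, middle and high replicate 1, and 2.00 to 2.41 in the other 6 libraries. The C1qb to C1qc ratio moved less, between 1.27 in low replicate 1 and 1.58 in middle replicate 3. The C1qa value of middle replicate 1 rests on 117 reads and that of high replicate 1 on 197. These proportions are a description and were not tested.

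**Figure D2:**
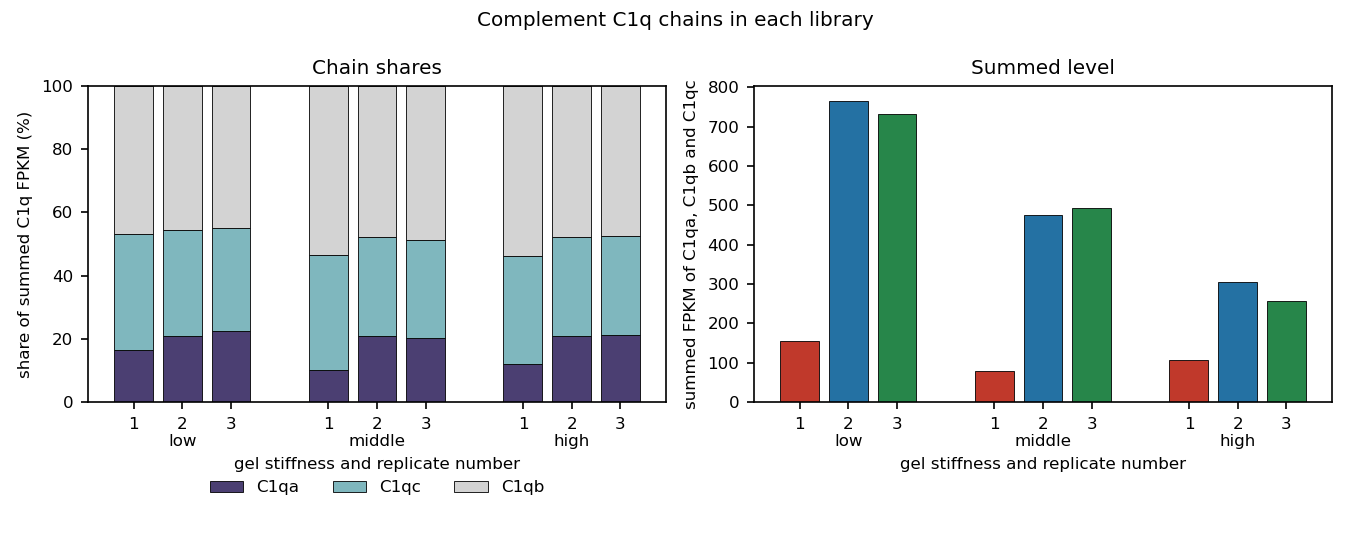
Left, share of the summed FPKM of C1qa, C1qc and C1qb held by each chain (%), and right, the summed FPKM, in each library, with replicate numbers 1 to 3 under each gel stiffness. The C1qa share is 10.3% to 16.4% in the replicate 1 libraries and 20.3% to 22.5% in the others, and the sum falls with stiffness in replicates 2 and 3.

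Maf fell with stiffness in every replicate number. It had 105, 245 and 293 CPM in replicates 1, 2 and 3 of the low gels, 68.4, 215 and 184 CPM in the middle gels and 58.6, 112 and 110 CPM in the high gels. It was the one gene of the 7 that declined at both stiffness steps in each replicate number, a pattern seen in 5.61% of tested genes. In high against low gels it fell by 1.13 ± 0.13 (adjusted p = 6.56e-04 with the block), and the call remained whichever of the 9 libraries was left out. Without the block it was at -1.19 ± 0.51 (adjusted p = 0.631). High and low libraries overlapped through low replicate 1, which lay just below the 2 higher libraries of the high gels. Of 8 tested relatives (large and small Maf factors and their Bach and Nfe2l2 partners), 1 rose in high gels and 0 fell, beside 6.72% and 8.73% of all genes: Mafg, a small Maf factor, rose by 0.29 ± 0.08.

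Vcam1 was scarce and fell with stiffness without a decline in replicate 1 relative to the others. It had 19.6, 12.5 and 12.2 CPM in replicates 1, 2 and 3 of the low gels, 7.40, 8.99 and 8.68 CPM in the middle gels and 8.67, 5.83 and 5.24 CPM in the high gels, from 81 to 260 reads per library. Each high and each middle library lay below each low library, as for 6.76% and 4.20% of tested genes. In high against low gels it fell by 1.16 ± 0.20 (adjusted p = 0.00326 with the block), by nearly the same amount in replicates 1, 2 and 3 (-1.17, -1.08 and -1.20), and the call remained whichever library was left out. Without the block edgeR gave -1.17 ± 0.27 (adjusted p = 0.242), and DESeq2, another count test, called it (adjusted p = 0.00546). Among 9 tested alpha 4 integrin chains, partners and other vascular adhesion genes, 0 rose and 1 fell, Itgb7 (-0.64 ± 0.12), which pairs with the alpha 4 chain; 8.73% of all genes fell. In replicates 2 and 3 alone 3 of the 9 rose and 3 fell, beside 12.2% and 14% of genes. Itga4, the alpha 4 chain itself, was at -0.14 ± 0.14 (adjusted p = 0.532). Madcam1 was too low to test.

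Adgre1 moved the other way. It had 605, 537 and 487 CPM in replicates 1, 2 and 3 of the low gels, 692, 541 and 596 CPM in the middle gels and 780, 739 and 606 CPM in the high gels. Each high library lay above each low library, by a margin of less than 1 CPM between high replicate 3 and low replicate 1, as for 5.90% of tested genes. Adgre1 rose in high against low gels by 0.38 ± 0.10 (adjusted p = 0.0206 with the block), with differences of 0.37, 0.46 and 0.31 in replicates 1, 2 and 3; 23.7% of tested genes were higher within each number. The call was lost without low replicate 2, low replicate 3 or high replicate 2 (adjusted p 0.0547 to 0.14), and without the block (adjusted p = 0.667). Its relative Adgre4 rose by 1.28 ± 0.15, and Adgre5, which encodes CD97, was at -0.15 ± 0.08 (adjusted p = 0.254).

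Mpeg1 changed little. It had 5552, 6716 and 6206 CPM in replicates 1, 2 and 3 of the low gels, 4827, 5426 and 5592 CPM in the middle gels and 5007, 6471 and 5767 CPM in the high gels, and the groups overlapped. In high against low gels it was at -0.10 ± 0.10 (adjusted p = 0.524 with the block). The highest library was 1.39-fold above the lowest. Of 6 other genes of this pore-forming family (perforin and terminal complement components), none was high enough to test; the most abundant were Prf1 (mean 0.166 CPM) and C9 (0.0648 CPM).

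Across the 7 genes, high against low gels gave 0 calls of 7 in edgeR without the block, where 0.091% of 12094 genes were called, with 2 of the 7 (Vcam1 and Maf) at an unadjusted p under 0.05 and 1 (Vcam1) called by DESeq2. With the block 4 of 7 fell and 1 rose, beside 8.73% of all genes lower and 6.72% higher (15.5% in all). The median log2 fold change of the 7 was -1.13, against -0.00258 over all tested genes. In replicates 2 and 3 alone 5 fell and 1 rose, beside 14% and 12.2% of genes (26.3% in all). The 5 calls of the block fit became 2 (Vcam1 and Maf) without low replicate 2, low replicate 3 or high replicate 2. The summed neutrophil markers were lower in high gels only in replicates 2 and 3. They were 13730 and 13770 CPM in high against 23440 and 20530 CPM in low gels there, and 3716 against 3198 CPM in replicate 1. Not all of these markers had lower means in high gels. Csf3r (1000 CPM in high and 927 CPM in low gels), Mmp8 (666 and 628 CPM) and Mmp9 (1220 and 1200 CPM) did not. The others did, among them Ngp (1200 and 3880 CPM). The 12 other macrophage markers summed to 2285, 3491 and 3310 CPM in high against 2133, 3482 and 3469 CPM in low gels. That sum joins markers that moved in opposite directions: Csf1r, its most abundant, rose (mean 1370 CPM in high and 881 CPM in low gels), while Fcgr1 (108 and 189 CPM) and Mertk (36.0 and 70.1 CPM) fell. The part of cell composition in these differences was not tested.

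**Figure D3:**
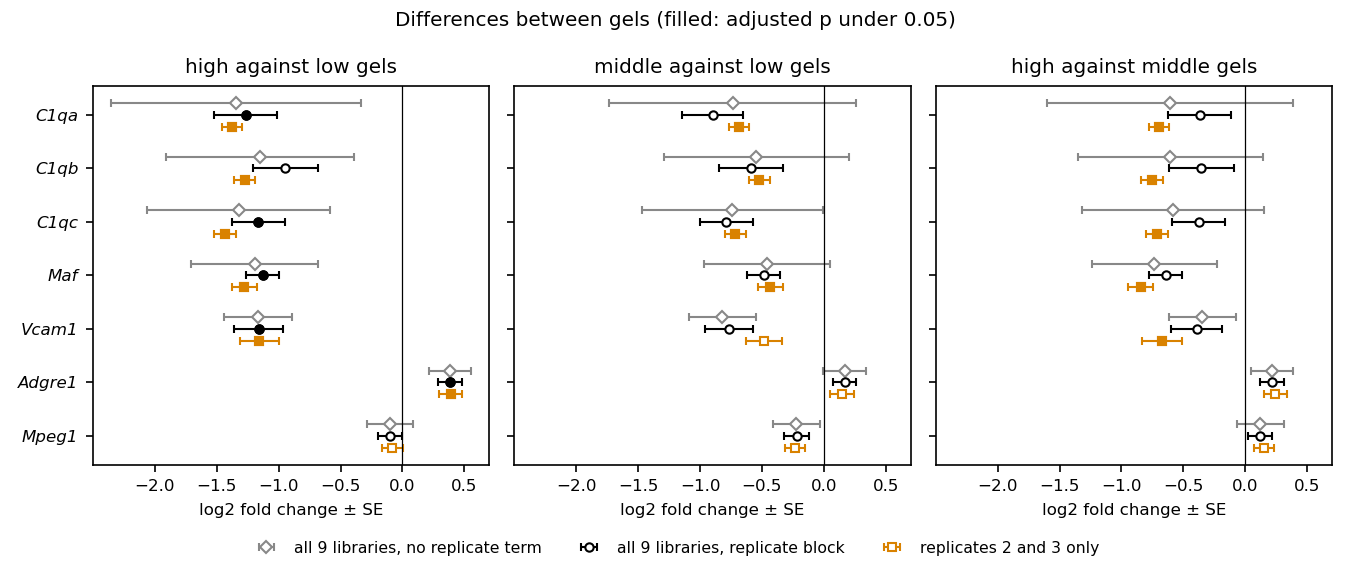
Log2 fold change (points) and standard error (bars) of the 7 genes in 3 comparisons of gels, from all 9 libraries without a replicate term, all 9 with the replicate block, and replicates 2 and 3 alone; filled points passed an adjusted p of 0.05. Of the 7 genes, 0, 5 and 6 passed in high against low gels in these 3 fits, beside 0.091%, 15.5% and 26.3% of all tested genes.

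The smaller steps gave fewer calls. In middle against low gels edgeR called 0 of the 7 genes without the block (0% of all genes, 1 of the 7 at an unadjusted p under 0.05, 0 by DESeq2) and 0 with it (1.84% of all genes, 0.81% higher and 1.03% lower, 5 of the 7 at an unadjusted p under 0.05, 5 by DESeq2 with the block). These shares of all genes are from edgeR, and none is given for DESeq2 with the block. The median of the 7 was -0.59 with the block, against 0.00618 over all genes. C1qa was at -0.90 ± 0.25 (adjusted p = 0.17), C1qc at -0.79 ± 0.21 (0.151), Vcam1 at -0.77 ± 0.19 (0.0761) and Maf at -0.49 ± 0.13 (0.109). When high replicate 1 was left out, 4 genes passed with the block (C1qb, C1qc, Vcam1 and Maf). In replicates 2 and 3 alone C1qa (-0.69 ± 0.08), C1qb (-0.52 ± 0.09), C1qc (-0.71 ± 0.09) and Maf (-0.43 ± 0.10) fell, beside 3.3% of genes lower and 3.12% higher (6.42% in all).

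In high against middle gels edgeR called 0 of the 7 without the block (0% of genes, 0 of the 7 at an unadjusted p under 0.05, 0 by DESeq2) and 0 with it (0.0165% of genes, 2 of the 7 at an unadjusted p under 0.05, 1 by DESeq2 with the block). Here too the shares of all genes are from edgeR only. The median of the 7 was -0.37 with the block, against -0.00785 over all genes. Maf was at -0.64 ± 0.13 (adjusted p = 0.163) and passed without low replicate 1 (0.0443) or high replicate 1 (0.0058). C1qb and C1qc also passed without high replicate 1 (0.00874 and 0.0116). In replicates 2 and 3 alone 5 genes fell, beside 3.26% of genes lower and 3.62% higher (6.88% in all): C1qa (-0.69 ± 0.08), C1qb (-0.75 ± 0.09), C1qc (-0.72 ± 0.09), Maf (-0.85 ± 0.10) and Vcam1 (-0.67 ± 0.16). Adgre1 (0.24 ± 0.09) and Mpeg1 (0.15 ± 0.08) did not pass there.

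Between replicate numbers the C1q genes differed more than between gels. In replicate 1 against the mean of replicates 2 and 3, with gel as a covariate, C1qa was lower by -2.79 ± 0.25 (adjusted p = 9.60e-05), at 16.7 ± 9.68 CPM in replicate 1 (SD, n = 3) and 116 ± 48.1 CPM in replicates 2 and 3 (SD, n = 6). C1qb was lower by -1.97 ± 0.25 and C1qc by -1.93 ± 0.20. Maf was lower by -1.27 ± 0.12, at 77.4 ± 24.5 CPM in replicate 1 (SD, n = 3) and 193 ± 73.1 CPM in replicates 2 and 3 (SD, n = 6). For these 4 genes each replicate 1 library lay below each other library, as for 26.5% of tested genes. Mpeg1 (-0.23 ± 0.09) was lower and Adgre1 (0.25 ± 0.08) higher in replicate 1, both with overlapping libraries. The Mpeg1 call was lost without any 1 of 7 libraries (all but low replicate 1 and middle replicate 2), and the Adgre1 call without middle replicate 1 or high replicate 3. Vcam1 was at 0.38 ± 0.17 (adjusted p = 0.0674); edgeR gave 0.66 and a call without middle replicate 1 (adjusted p = 0.00336), and 0.205 without low replicate 1 (0.381). In all, 5 of 7 were lower and 1 higher in replicate 1, beside 32.5% and 32.9% of all genes (65.4% in all). Between replicates 3 and 2 edgeR called 0 of 7 (0% of genes, and 0 of the 7 at an unadjusted p under 0.05). As given above, the summed neutrophil, monocyte and other macrophage markers were lower in replicate 1 as well. Single markers went the other way. Mrc1 averaged 105 CPM in replicate 1 and 72.4 CPM in the others, Spic 15.2 and 12.5 CPM, and the monocyte marker Klf4 43.7 and 33.4 CPM. What the replicate number stands for was not tested.

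**Figure D4:**
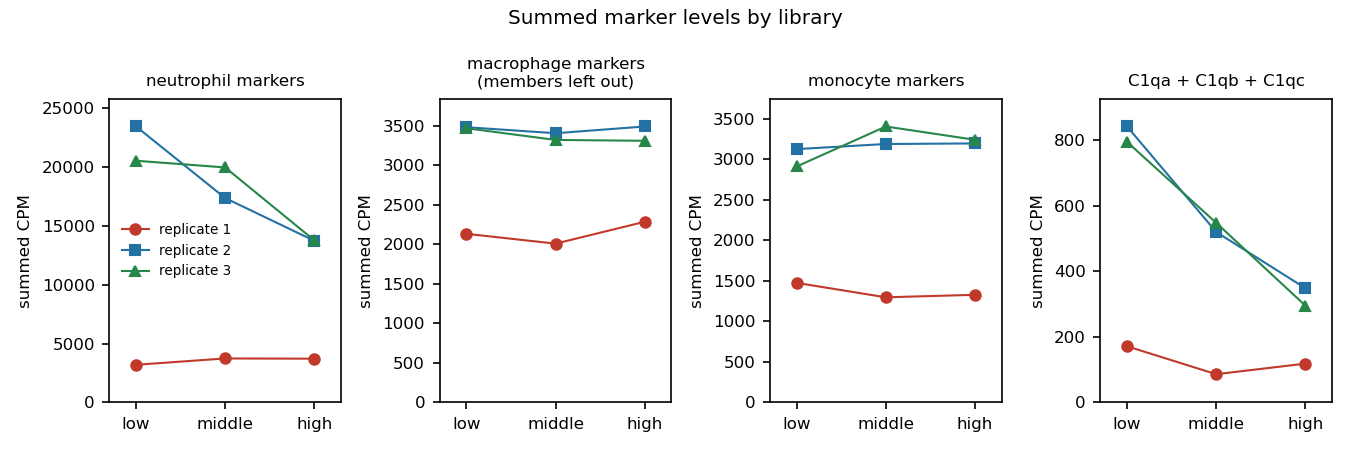
Summed CPM of 13 neutrophil markers, the 12 macrophage markers outside the 7 genes, 7 classical monocyte markers and the 3 C1q genes in each library, by gel stiffness and replicate number. Csf1r is in both the macrophage and the monocyte sum. Each sum is lower in replicate 1 than in the other libraries, and in replicates 2 and 3 the neutrophil and C1q sums are lower in high than in low gels while the other 2 sums vary less.

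Among other macrophage genes more fell than rose in high gels. Of 28 tested, 11 fell and 3 rose in high against low gels, beside 8.73% of all genes lower and 6.72% higher, and the other 14 did not pass. Their median was -0.56, against -0.00258 over all genes. In replicates 2 and 3 alone 17 fell and 4 rose, beside 14% and 12.2% of genes. Axl (-2.11 ± 0.20) and Mertk (-0.94 ± 0.12), receptor kinases used to clear dying cells, fell. The iron exporter gene Slc40a1 (-0.81 ± 0.11) fell too. Cd163, the haemoglobin scavenger receptor gene, rose by 2.02 ± 0.29, at 0.355, 8.14 and 8.61 CPM in replicates 1, 2 and 3 of high gels against 0.0754, 1.84 and 2.41 CPM in low gels. Its replicate 1 values rest on 1 read in low, 1 in middle and 5 in high gels. Axl had 8.53, 26.8 and 29.1 CPM in high gels against 36.0, 117 and 121 CPM in low gels, and so was lower in both high gels and replicate 1, as the C1q genes were. In middle against low gels Axl (-1.51 ± 0.19) and Mertk (-0.70 ± 0.12) were the 2 of 28 that fell, and none rose. In replicate 1, 12 of the 28 were lower and 8 higher, near the shares of all genes called (32.5% lower and 32.9% higher): Cx3cr1 (-1.95 ± 0.14), Cd163 (-4.87 ± 0.38) and Csf1r (-0.90 ± 0.09) were lower, and Lgals3 (1.62 ± 0.13) was higher. The size of the Cd163 difference is uncertain because of its few replicate 1 reads.

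The rest of the complement system did not share one direction. Of 23 tested components, receptors and regulators outside C1q, 5 fell and 6 rose in high against low gels (median 0.05), beside 8.73% of all genes lower and 6.72% higher. Fcnb, a neutrophil ficolin gene of the lectin pathway, fell by 1.55 ± 0.17, at 0.355, 6.62 and 6.80 CPM in replicates 1, 2 and 3 of high gels against 0.905, 22.1 and 17.7 CPM in low gels. Cd93 (-0.87 ± 0.10), once described as a C1q receptor, and C3ar1 (-0.88 ± 0.11), the C3a receptor gene, also fell. Cfp, which encodes properdin, the stabiliser of the alternative pathway convertase, rose by 0.82 ± 0.09, at 208, 494 and 500 CPM in replicates 1, 2 and 3 of high gels against 138, 263 and 255 CPM in low gels. C1ra and C1s1, for proteases that join C1q, are named after their values were seen: C1ra was at 0.05 ± 0.16 (adjusted p = 0.857), and C1s1 rose by 1.78 ± 0.43 (adjusted p = 0.017) from few reads, 3 to 55 per library. In middle against low gels C3ar1 (-0.73 ± 0.11) and Cd93 (-0.69 ± 0.10) fell and Cfp (0.54 ± 0.09) rose. In replicate 1, 18 of the 23 were lower and 1 higher, beside 32.5% and 32.9% of all genes, with a median of -1.27 against 0.00537 over all genes.

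**Figure D5:**
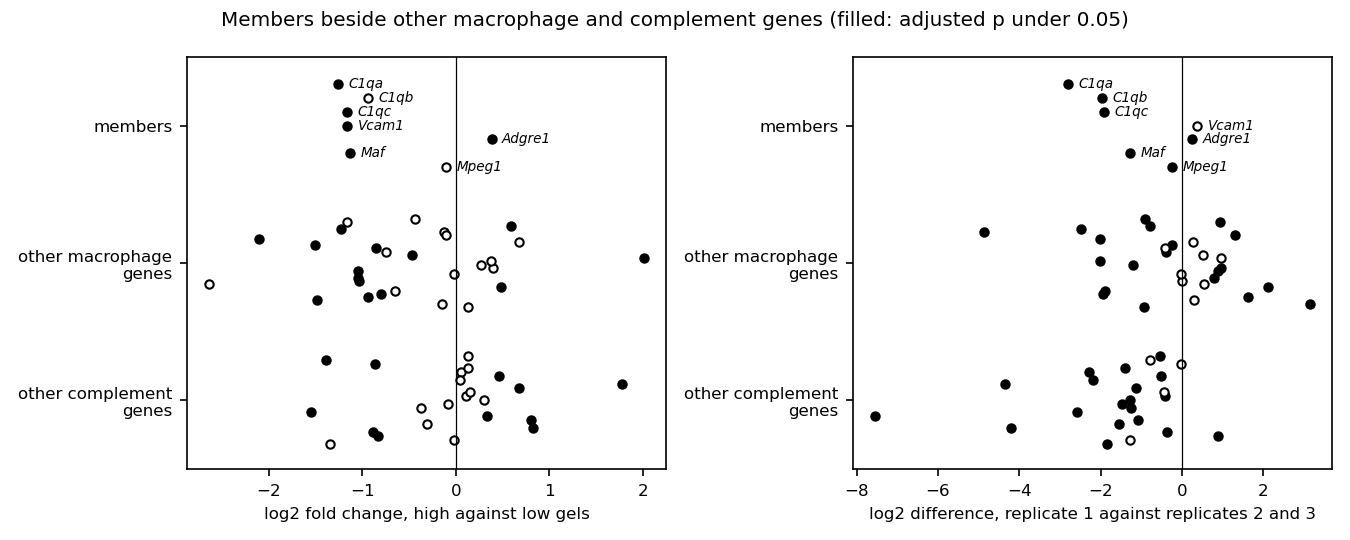
Log2 fold changes from the fit with the replicate block in high against low gels (left) and log2 differences of replicate 1 against replicates 2 and 3 (right) for the 7 genes, 28 other macrophage genes and 23 other complement genes, 1 point a gene; filled points passed an adjusted p of 0.05. The C1q genes and Maf lie left of 0 in both panels, whereas the complement genes lie on both sides on the left and mostly below 0 on the right.

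The genes most like these in pattern were found by Pearson's r of log2 CPM over the libraries. The 9193 candidates were tested genes averaging 5 CPM or more, leaving out the 7 and predicted-gene symbols (Gm with digits, or ending in Rik). Because replicate 1 libraries form a cluster of their own, r within the 6 libraries of replicates 2 and 3 is given, and it describes libraries that share gels and replicate numbers. For the mean of the C1q genes the 5 closest over all 9 libraries were Tiam1 (0.963 in the 6), Arhgap18 (0.988), Cdca3 (0.979), Cdk2 (0.951) and Fam117a (0.961). For Maf they were Ehd4 (0.993), Incenp (0.965) and Abhd15 (0.96), and for Vcam1 Dgkz (0.964), Kdr (0.989) and Ctns (0.942). For Adgre1 they were Eif5a (0.979), Lypla2 (0.97) and Mrpl52 (0.966), and for Mpeg1 Hyou1 (0.928), Sirpa (0.868) and Galc (0.822). Among the 7 genes themselves r in the 6 libraries was 0.992 to 0.996 between C1q chains, 0.946 to 0.964 between Maf and a chain, 0.992 to 0.995 between Vcam1 and a chain, and -0.788 to -0.754 between Adgre1 and a chain. Over all 9 libraries Vcam1 did not follow the chains, with r of 0.111 to 0.2. There r was 0.988 to 0.995 between chains, 0.937 to 0.964 for Maf and -0.788 to -0.752 for Adgre1.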

How the data were processed

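RNA sequencing was analysed in 9 libraries grouped by title. Per the submitters' processing notes the authors used HISAT2 2.0.1, HTSeq 0.6.1, DESeq2 and cutadapt 1.9.1, with build GRCm39; the sources used here give no settings, strand included. The deposited files hold raw counts and the authors' FPKM per gene, which matched counts over exonic size within 0.006 FPKM. Counts were fitted with edgeR 4.0.16 (R 4.3.3): filterByExpr (12094 genes), TMM, robust quasi-likelihood, two-sided contrasts, Benjamini-Hochberg adjustment over all tested genes; the SE is the log2 fold change over the square root of F. DESeq2 1.42.0 was an alternative. The code was tested on simulated data. Plots used matplotlib 3.10.9.

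The labels number replicates 1 to 3 in each gel without saying what is shared. After removal of group means, libraries of the same number had correlations of 0.595 to 0.856 over genes (9 pairs), so the number was also fitted as a block; numbers 2 and 3 also correlated with each other (0.552 to 0.698). The genes and lists were chosen with earlier results of these data known. Named genes are the 7, for each list the called genes lowest in adjusted p (at most 4), the 2 most abundant where none was called, and the closest by correlation. C1ra, C1s1, Fcgr1, Madcam1, Clec4f and Timd4 are outside this rule and were chosen after their values were seen. So were single markers named only to show direction within a marker sum. Log2 CPM used a prior count of 2.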

Additional observations from a re-analysis of the deposited data

How the results depend on the processing

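The fit without the replicate block called 0 of the 7 genes in each comparison of gels, also with other size factors (RLE), with no filter on low counts and without any single library. In high against low gels DESeq2 called 1, and with the replicate block 5 were called by edgeR, 5 with RLE factors, 6 by DESeq2, 4 with no filter, and 2 to 6 without single libraries. For middle against low gels the same fits with the block gave 0, 0, 5, 1 and 0 to 4, and for high against middle gels 0, 0, 1, 0 and 0 to 3. With the block edgeR called 15.5% of all genes in high against low, 1.84% in middle against low and 0.0165% in high against middle gels. No such share is given for the other fits with the block, so their counts describe only the 7 genes. Replicates 2 and 3 alone gave 6, 4 and 5 calls, with or without a block. No fold change of the 7 genes turned its direction in the alternatives run: set against the unblocked fit for gels and the block fit for replicate 1, 537 values kept their side of the threshold, 105 gained significance and 9 lost it. Because the unblocked fit called 0 of the 7 in each comparison of gels, no gel call could be lost in this tally. The 9 losses all concern replicate 1 against the others. Leaving single libraries out of the block fit lost the calls of C1qa (4 libraries), C1qc (3) and Adgre1 (3) in high against low gels. Over all genes, high against low gels gave 11 calls (333 by DESeq2, 1869 with the block, 3207 in replicates 2 and 3 alone, 0 to 41 without single libraries), middle against low gels 0 (48, 222 and 784) and high against middle gels 0 (2, 2 and 840). The causes were not tested. In replicate 1 against the others 4 to 6 of the 7 were called in every alternative, where 65.4% of all genes were called in the block fit. The lowest member counts, 81 to 260 reads for Vcam1 and 117 for C1qa in middle replicate 1, limit precision there.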

Other observations

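Apart from the classical monocyte markers given above, markers of other cell types were low beside the neutrophil and macrophage lists. The 6 T and NK cell markers found in the files summed to at most 2.14 CPM in any library, and the 5 B cell markers to 31.6 to 55.1 CPM in replicate 1 and 104 to 206 CPM in replicates 2 and 3. The 9 endothelial and stromal markers summed to 42.7 to 66.2 CPM in high and 67.0 to 86.8 CPM in low gels. Middle gels, at 42.5 to 76.6 CPM, overlapped both. Within this sum Pecam1, the most abundant (28 CPM in high and 21.8 CPM in low gels), Cxcl12 and Pdgfrb had higher means in high gels, and the others lower. Erythroid markers, relevant to macrophages of red cell islands, summed to 438 to 763 CPM in replicate 1 and 222 to 531 CPM in replicates 2 and 3, which overlapped.

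When group and replicate-number means are both removed, the 3 of the same candidate genes closest to the C1q mean were Cdc42ep4, Ccnb1 and Zkscan17 (r = 0.997, 0.992 and 0.992 over 9 libraries, with few degrees of freedom left), a description only.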
